A study of Mus musculus with 6 samples.

Results

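The genes described here encode enzymes that add or remove methyl groups on histones and DNA, or remove acetyl groups from histones and other proteins, in osteoclasts (OC) and osteoclast precursors (OCP) grown from mouse bone marrow. They were chosen by name. Rows of the deposited RNA-seq table were taken if the symbol began with Kdm (lysine demethylases), Hdac (histone deacetylases) or Sirt (sirtuins) and a digit. The DNA methyltransferase genes Dnmt1, Dnmt3a and Dnmt3b, the TET dioxygenase genes Tet1, Tet2 and Tet3, and Ezh1, Ezh2, Eed and Suz12, the core of Polycomb repressive complex 2 (PRC2), were added. The rule matched 47 rows. The antisense transcript Kdm6bos and the Y-linked Kdm5d were dropped, which left 45 genes of the 26529 in the table.

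Both groups were made from marrow of wild-type C57BL/6 mice aged 8 weeks, and both received macrophage colony-stimulating factor (M-CSF, 20 ng/ml) and RANKL (10 ng/ml), which induces osteoclast formation. The 3 OC libraries were labelled as cultures of day 6 and the 3 OCP libraries as cultures of day 3, so stage and time in culture cannot be told apart. The sources used here do not give how many mice contributed to a library, or whether any were pooled. The cultures were not sorted, and in bulk RNA fewer cells of a type and less RNA per cell cannot be told apart.

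Histone deacetylases and sirtuins remove acetyl groups, including those that keep chromatin open. HDAC enzymes depend on zinc and sirtuins on NAD. EZH1 and EZH2 methylate lysine 27 of histone H3 (H3K27), a mark of silenced genes that KDM6 enzymes erase. DNMT enzymes methylate cytosine, and TET enzymes oxidise the methyl group as a step in its removal. In mouse osteoclast precursors, EZH2 and DNMT3A are known for silencing anti-osteoclastic genes such as Irf8, and KDM6B for removing H3K27 methylation at the gene of the master regulator NFATc1.

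The libraries held 33219178 to 38113266 reads assigned to genes in OC and 36740844 to 42121216 in OCP, and 3 reads at a length of 1 kb were worth 0.0712 to 0.0903 RPKM (reads scaled by gene length and by the library's total). Libraries correlated at 0.994 to 0.995 within each group and at 0.949 to 0.956 between groups (Pearson's r over the genes tested, as a description). The marker genes went against the order of the labels. All 16 osteoclast markers, among them Ctsk and Acp5, were lower in the libraries labelled OC, with summed levels of 2957 to 3055 RPKM there and 5452 to 5600 RPKM in those labelled OCP. Of 10 macrophage markers 8 were higher and 2 lower in OC, with sums of 8428 to 8934 RPKM in OC and 5318 to 5771 RPKM in OCP. Most of these sums was Lyz2, at 6893 to 7365 RPKM in OC and 3910 to 4391 RPKM in OCP. The 2 lower markers were Csf1r and Cd68. Of 20 proliferation genes 1 was higher and 11 were lower in OC (214 to 219 RPKM in OC, 252 to 265 RPKM in OCP). All 4 tested of 10 measured neutrophil markers were higher in OC (53.7 to 57.9 RPKM in OC, 36.8 to 40.9 RPKM in OCP). Summed markers of B, T and NK, stromal, endothelial, erythroid, dendritic and mast cells stayed at or under 4.27 RPKM in every library. Of these, T and NK cell markers, mostly Lck in OC, summed to 1.33 ± 0.0590 RPKM in OC and 0.186 ± 0.0844 RPKM in OCP, and mast cell markers, mostly Hdc in OC, to 1.86 ± 0.157 RPKM in OC and 0.249 ± 0.0105 RPKM in OCP (SD, n = 3 each). The part of these differences in the results on the enzymes was not tested, and every direction below is that of the labels.

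The enzymes were split between genes that were higher and genes that were lower in OC, by modest amounts (plot of the change of every tested enzyme gene). Of the 45 genes, 38 reached 1 RPKM in 3 or more of the 6 libraries and were tested with limma on log2(RPKM + 1). At an adjusted p under 0.05, 9 were higher in OC (Kdm7a, Sirt2, Kdm6b, Ezh2, Kdm4c, Tet2, Kdm5a, Kdm2a and Kdm2b) and 7 lower (Sirt5, Dnmt3a, Hdac2, Kdm8, Kdm5b, Hdac7 and Kdm1b). The other 22 tested genes did not pass. The 9 and 7 genes made up 23.7% and 18.4% of the tested enzymes, beside 23.5% higher and 32.1% lower among all 12301 tested genes. In either direction it was 42.1% of the enzymes against 55.6% of all genes. None of the 16 reached a 2-fold change on the log2(RPKM + 1) scale, which understates the change of low genes. The median log2 fold change (OC minus OCP) was -0.01 over the tested enzymes and -0.05 over all tested genes.

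The split between higher and lower depended on the scaling. With quantile normalization 8 enzymes were higher and 10 lower, beside 23.1% higher and 33.2% lower among all tested genes. With each library's trend against transcript GC content removed, a setting added after seeing the data, 13 were higher and 6 lower, beside 29.9% and 28.6%. TMM factors, which scale each library to a trimmed mean of all genes, gave 10 higher and 7 lower, beside 28.2% and 26.2%, and moved the median log2 fold change of all genes to 0.01. A voom fit on reads recovered from the RPKM values gave 12 higher and 9 lower, beside 26.5% and 25.7%. It also tested enzymes under the 1 RPKM filter, such as Hdac9. A stricter filter, a mean of 5 RPKM or more, tested fewer of the enzymes and left 5 higher and 2 lower, beside 22.8% and 40.2%. Neither of these pairs of counts is out of 38, so neither is compared with the shares beside it. OC and OCP values did not overlap for 21 of the 38 tested enzymes (10 with OC above, 11 below), against 62.7% of all tested genes (26.7% above, 36% below). All 16 called enzymes were among the 21. Kdm8 passed the filter on low values through OCP alone and Hdac4 through OC alone.

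**Figure D1:**
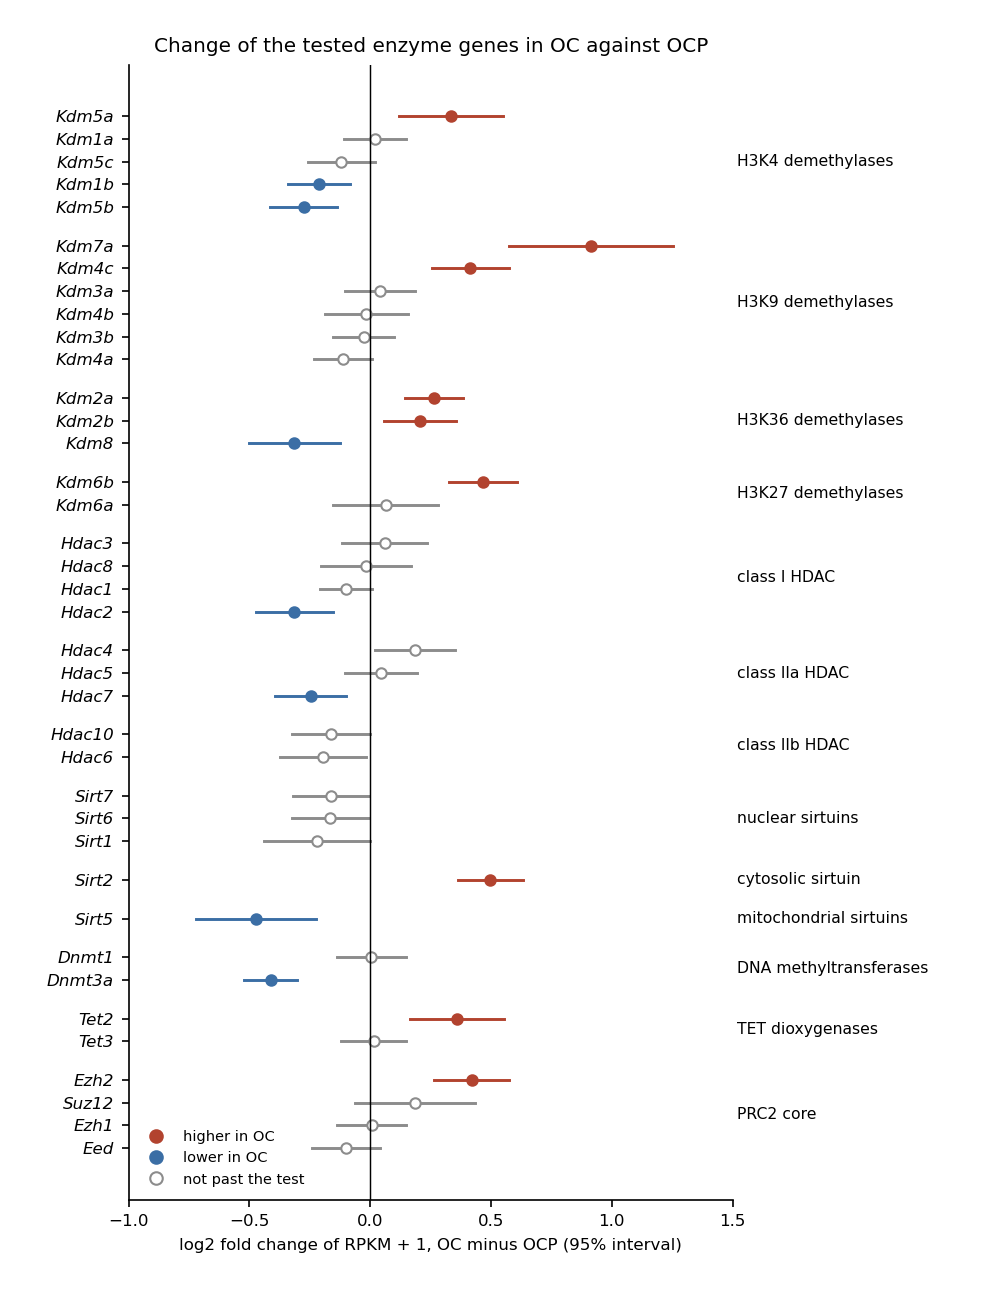
Log2 fold change of RPKM + 1, OC minus OCP (horizontal axis), for the 38 tested enzyme genes grouped by role. Points are limma estimates and bars 95% intervals; red marks 9 genes higher in OC, blue 7 genes lower in OC, and open points the 22 that did not pass, with Kdm7a farthest to the right at 0.91 and Sirt5 farthest to the left at -0.47.

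Promoter sequences were compared for the called enzymes with the largest rises and falls that had a single RefSeq promoter entry whose start lay within 500 bases of the gene's start in the table. These were Kdm7a and Sirt2, which rose, and Hdac2 and Kdm8, which fell, although Kdm8 entered the test only through its OCP values. The stretches are shown so that the starts of rising and falling genes can be compared. Each is the 250 bases before the RefSeq start on GRCm38.p6, 5′ to 3′ on the gene's strand, with CG dinucleotides in capitals.
Kdm7a: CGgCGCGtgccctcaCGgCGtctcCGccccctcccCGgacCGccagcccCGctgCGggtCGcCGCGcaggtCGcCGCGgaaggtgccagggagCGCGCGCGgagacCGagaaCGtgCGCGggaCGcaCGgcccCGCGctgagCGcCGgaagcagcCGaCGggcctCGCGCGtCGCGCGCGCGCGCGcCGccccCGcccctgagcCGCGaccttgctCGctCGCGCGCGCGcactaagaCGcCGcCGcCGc
Sirt2: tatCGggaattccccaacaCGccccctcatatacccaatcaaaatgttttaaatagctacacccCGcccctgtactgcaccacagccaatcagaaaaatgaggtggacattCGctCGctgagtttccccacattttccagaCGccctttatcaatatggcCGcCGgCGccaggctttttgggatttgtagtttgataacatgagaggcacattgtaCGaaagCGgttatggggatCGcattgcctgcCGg
Hdac2: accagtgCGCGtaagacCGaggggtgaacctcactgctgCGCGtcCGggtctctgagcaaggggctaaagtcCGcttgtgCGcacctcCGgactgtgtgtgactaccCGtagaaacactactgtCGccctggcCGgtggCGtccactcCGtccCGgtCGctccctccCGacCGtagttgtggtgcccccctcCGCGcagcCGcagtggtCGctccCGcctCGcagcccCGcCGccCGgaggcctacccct
Kdm8: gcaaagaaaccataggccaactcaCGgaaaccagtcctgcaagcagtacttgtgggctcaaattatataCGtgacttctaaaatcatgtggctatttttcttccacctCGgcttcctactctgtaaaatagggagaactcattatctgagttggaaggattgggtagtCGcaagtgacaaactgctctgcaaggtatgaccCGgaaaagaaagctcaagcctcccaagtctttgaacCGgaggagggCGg
The Kdm7a stretch lies at chr6:39206774-39207023 on the minus strand and holds 56 CG dinucleotides. The Sirt2 stretch, at chr7:28766502-28766751 on the plus strand, holds 13. The Hdac2 stretch, at chr10:36974294-36974543 on the plus strand, holds 27, and the Kdm8 stretch, at chr7:125444370-125444619 on the plus strand, holds 7.

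Promoter entries were found for 37 of the 45 enzymes, with 53 windows of 300 bases (250 before and 50 after the start). Their median CpG count was 21, against 7 over all 32851 windows of the table, and 45 of the 53 had at least that overall median. Kdm7a, with 65 CpGs in its window, stood at percentile 99.99 of all windows, Hdac2 with 36 at percentile 93.8, Sirt2 with 16 at percentile 67.0 and Kdm8 with 13 at percentile 62.1. Each direction had a gene with a CpG-rich and a gene with a less CpG-rich start. Then 6 motifs were searched on both strands. TGANTCA (AP-1) occurred in 11.3% of the enzymes' windows and 7.81% of all windows, in Hdac7, Hdac9, Kdm3a, Kdm4a and Kdm5c. TTTNNCGC (E2F) occurred in 9.43% against 5.17%, in Dnmt1, Ezh2, Suz12, Sirt3 and Sirt4. GAAANNGAA (IRF) was found in 3.77% against 8.56%, and TATAAA, the core promoter box, in 3.77% against 13.6%. TGACGTCA (CRE) was in 0 of the enzymes' windows against 1.79% of all, and GGGANTTTC (NF-kB) in 0 against 1.11%. The enzymes' shares rest on 6 of 53 windows for AP-1, 5 for E2F and 2 each for IRF and TATAAA. They were not adjusted for the higher CpG content of these windows, and no difference is read from them. The windows of the 4 genes printed above held none of the 6 motifs, which says only that those letters are absent there.

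Among the demethylases of H3K4, the methyl mark of active promoters, Kdm5a rose, Kdm5b and Kdm1b fell, and Kdm1a and Kdm5c did not pass. KDM5 enzymes remove di- and trimethylation, and the flavin-dependent KDM1 enzymes mono- and dimethylation. Kdm5a had 5.86, 5.84 and 6.96 RPKM in OC, against 5.10, 4.09 and 5.01 RPKM in OCP (log2 fold change 0.33, SE 0.09, limma adjusted p = 0.016). The OC libraries were all above the OCP libraries, but the call was lost when low genes were kept in the fit (adjusted p = 0.051). Its paralog Kdm5b had 2.70, 2.49 and 2.79 RPKM in OC, against 3.49, 3.39 and 3.40 RPKM in OCP (log2 fold change -0.28, SE 0.06, limma adjusted p = 0.0049), again without overlap. The ratio of Kdm5a to Kdm5b was therefore 2.17, 2.34 and 2.49 in OC and 1.46, 1.204 and 1.47 in OCP. Kdm1b averaged 3.37 ± 0.0386 RPKM in OC and 4.07 ± 0.146 RPKM in OCP (SD, n = 3 each), a log2 fold change of -0.21 (limma adjusted p = 0.012). Kdm5c was the highest of all the demethylase genes, at 28.1, 27.01 and 26.3 RPKM in OC and 27.3, 30.8 and 30.9 RPKM in OCP. Its groups overlapped through OCP replicate 1, and it passed as lower when that library was left out (log2 fold change -0.18, limma adjusted p = 0.019, against 0.12 with it). Kdm1a, which encodes LSD1, had 13.5, 14.002 and 12.8 RPKM in OC and 12.6, 13.9 and 13.2 RPKM in OCP. These values were interleaved, and the 95% interval of its log2 fold change was -0.11 to 0.15.

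**Figure D2:**
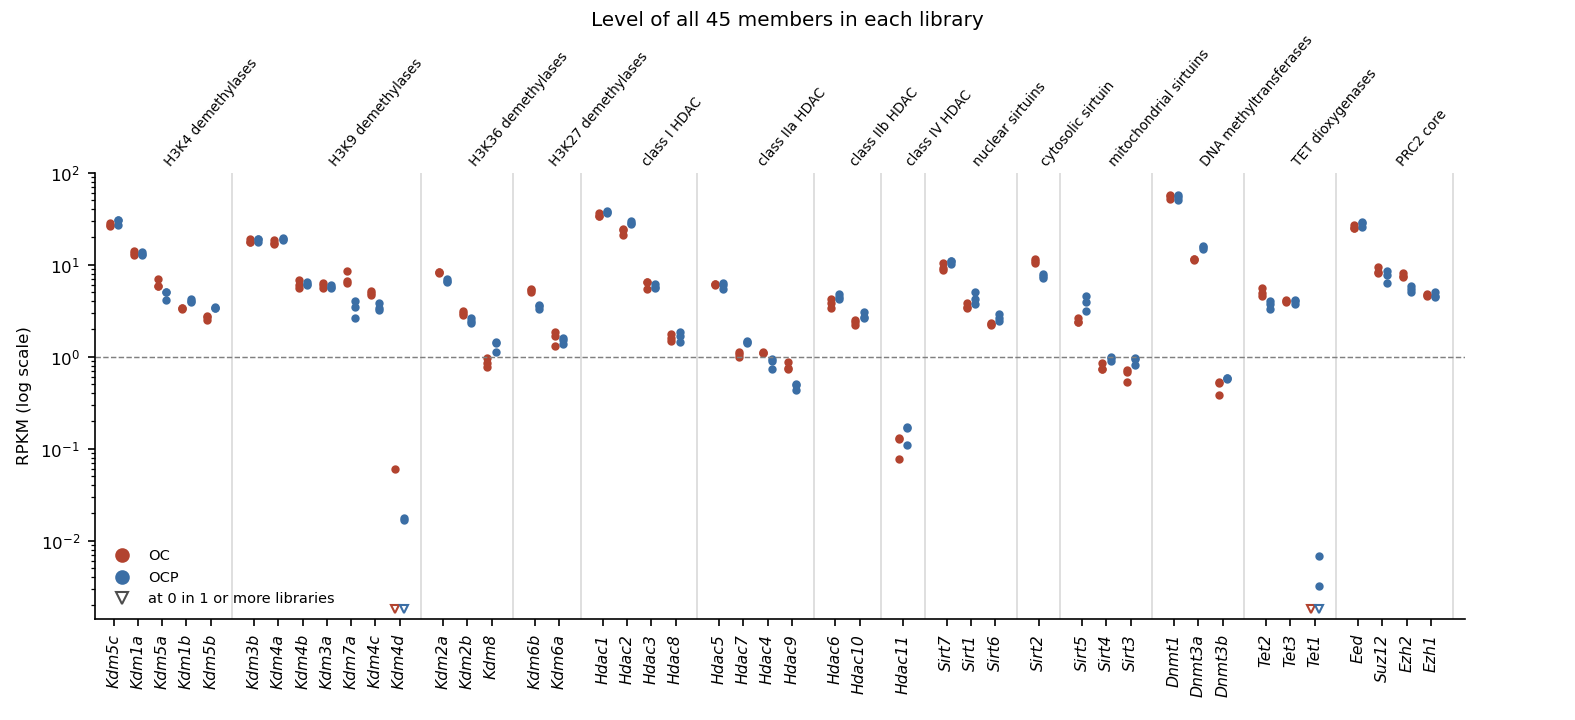
RPKM on a log scale (vertical axis) of all 45 enzyme genes in each library, ordered by role, with 3 OC libraries in red and 3 OCP libraries in blue to their right. The dashed line marks 1 RPKM and open triangles mark values of 0; Dnmt1 is highest, near 54 RPKM in both groups, and Kdm4d and Tet1 are lowest.

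Kdm7a showed the largest change of any tested enzyme. It encodes a demethylase of mono- and dimethylated H3K9 and H3K27 and lies on chromosome 6 (39136623 to 39206789, minus strand, GRCm38). It had 6.64, 6.40 and 8.65 RPKM in OC, against 4.03, 2.61 and 3.502 RPKM in OCP. Every OC library was above every OCP library, and the spread within each group was wide, with 2139 to 3317 reads in OC and 1044 to 1707 reads in OCP. The mean was 7.23 ± 1.24 RPKM in OC and 3.38 ± 0.715 RPKM in OCP, a ratio of 2.14 and a log2 fold change of 0.91 (SE 0.14, 95% interval 0.57 to 1.25, limma adjusted p = 0.0013). An antisense gene, 4930599N23Rik, shares 287 exonic bases with it (2.85% of its length) and had 387, 371 and 553 reads in OC and 310, 162 and 212 reads in OCP. Because the strand setting of the counting is not given in the sources used here, reads of the pair cannot be told apart.

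Kdm7a also shared its high and low libraries with some other rising enzymes. The counts that follow, with 3 libraries in each group, were not made over all tested genes. They are not read as a trait of the enzymes. Of the 9 that rose, 6 were lowest among OCP in OCP replicate 2 and 5 were highest among OC in OC replicate 3. In these libraries the deviation of a gene from its group mean followed the GC content of its transcript (r = 0.44 in OCP replicate 2 and -0.30 in OC replicate 3, over 11943 genes, as a description; -0.46 in OCP replicate 1). The longest Kdm7a transcript had 39.6% GC, the rising enzymes a median of 45.4%, the falling ones 47.6% and all tested genes 50%. The median log2 fold change of all genes was 0.05, -0.06 and -0.15 over genes of low, middle and high GC, in groups of 3981. With the GC trend removed from each library, the log2 fold change of Kdm7a was 0.82 and it still passed. The part of GC content in the changes of Kdm7a and the other rising enzymes was not tested.

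The other H3K9 demethylases moved less. Kdm4c, which acts on trimethylated H3K9 and H3K36, averaged 4.95 ± 0.268 RPKM in OC and 3.47 ± 0.290 RPKM in OCP (SD, n = 3 each), with no overlap and a log2 fold change of 0.41 (SE 0.07, limma adjusted p = 0.0014). Its paralog Kdm4a did not pass, at 17.6 ± 0.834 RPKM in OC and 19.1 ± 0.569 RPKM in OCP (log2 fold change -0.11, adjusted p = 0.10). Kdm3b, Kdm3a and Kdm4b, of which the KDM3 enzymes remove mono- and dimethylation, did not pass either, with log2 fold changes of -0.03, 0.04 and -0.02. Of the exonic bases of Kdm3b, 48.8% are shared with the antisense gene Gm26538, so its level is uncertain. Kdm4d was nearly silent, with 6, 0 and 0 reads in OC and 2, 2 and 0 reads in OCP.

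The 3 enzymes grouped as H3K36 demethylases passed, 2 higher and 1 lower in OC, beside 55.6% of all tested genes called in either direction. The lower one, Kdm8, entered the test only through its OCP values, so its call is not read as a trait of the group. Kdm2a and Kdm2b encode proteins that bind unmethylated CpG and remove dimethylation of H3K36, and KDM2B also brings a variant Polycomb complex to CpG islands. Kdm2a had 8.42, 8.29 and 8.06 RPKM in OC, against 6.97, 6.49 and 6.65 RPKM in OCP (log2 fold change 0.27, SE 0.05, limma adjusted p = 0.0031). Kdm2b had 3.02, 3.17 and 2.88 RPKM in OC, against 2.35, 2.66 and 2.46 RPKM in OCP (log2 fold change 0.20, SE 0.06, limma adjusted p = 0.027). Both were without overlap between the groups. Kdm2b shares 627 exonic bases (5.77% of its length) with the antisense gene Rnf34. Rnf34 had 1858, 1477 and 1875 reads in OC and 2731, 2536 and 2424 reads in OCP, and reads of the pair cannot be told apart. The Kdm2b call was lost after quantile normalization (adjusted p = 0.14) and without any of OC replicates 1 and 2 and OCP replicates 1 and 3 (adjusted p 0.067, 0.088, 0.072 and 0.080). Kdm8, a JmjC-domain protein, had 0.969, 0.844 and 0.780 RPKM in OC, against 1.43, 1.402 and 1.13 RPKM in OCP (log2 fold change -0.31, SE 0.08, limma adjusted p = 0.011). These rest on 67 to 81 reads in OC and 99 to 144 reads in OCP, and the call was lost with the GC trend removed (log2 fold change -0.18, adjusted p = 0.083).

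For H3K27, an eraser and a writer rose together while the rest of both pairs did not pass. Kdm6b, on chromosome 11 (69398508 to 69413675, minus strand), had 5.44, 5.01 and 5.33 RPKM in OC, against 3.32, 3.59 and 3.67 RPKM in OCP. The 2 groups were well apart, and its log2 fold change was 0.47 (SE 0.06, 95% interval 0.33 to 0.61, limma adjusted p = 0.00036). Kdm6a, its X-linked paralog, averaged 1.62 ± 0.289 RPKM in OC and 1.49 ± 0.121 RPKM in OCP, with overlapping groups and a 95% interval of -0.15 to 0.28. The dropped antisense transcript Kdm6bos shares 286 bases with Kdm6b (4.11% of its length) and had 174, 133 and 188 reads in OC and 131, 126 and 129 reads in OCP.

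Ezh2, the catalytic subunit of PRC2, on chromosome 6 (47530139 to 47595341, minus strand), had 7.28, 7.46 and 8.17 RPKM in OC, against 5.82, 5.07 and 5.48 RPKM in OCP. No OC library was as low as any OCP library, and the log2 fold change was 0.42 (SE 0.07, 95% interval 0.26 to 0.58, limma adjusted p = 0.0011). Ezh2 is known to be more abundant in dividing cells. Of the 20 proliferation genes 1 was higher in OC, 11 were lower (55%, beside 32.1% of all tested genes) and 8 were not called. A link between these genes and the change of Ezh2 was not tested. The overlap of Ezh2 with the antisense gene Gm26625 covers 174 bases (2.61% of its length). The alternative catalytic subunit Ezh1 averaged 4.69 ± 0.129 RPKM in OC and 4.67 ± 0.313 RPKM in OCP (95% interval of the log2 fold change -0.14 to 0.15). The scaffold Suz12 averaged 8.62 ± 0.828 RPKM in OC and 7.49 ± 1.14 RPKM in OCP and did not pass (log2 fold change 0.19, limma adjusted p = 0.18), except as higher by voom (0.25, adjusted p = 0.033). Eed, which reads the H3K27 mark and was the highest of the 4, had 25.1, 25.1 and 27.4 RPKM in OC and 29.2, 25.8 and 28.4 RPKM in OCP, and did not pass. Ezh2 made up 16.3 ± 0.117% of the summed RPKM of the 4 core genes in OC and 12.01 ± 0.0757% in OCP (SD, n = 3 each).

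**Figure D3:**
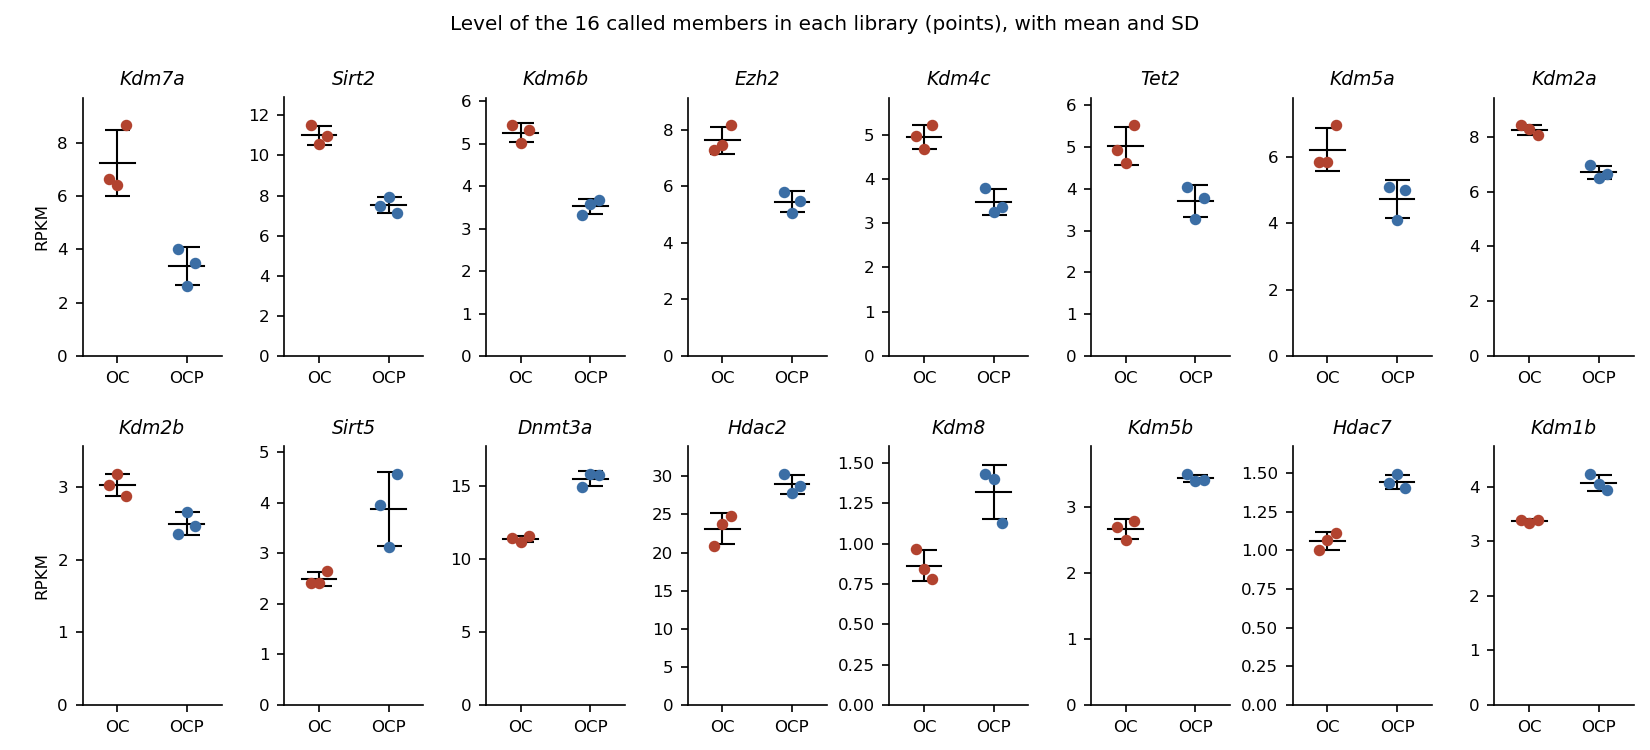
RPKM (vertical axes, from 0) of the 16 enzyme genes that passed the test, in each OC library (red, left) and OCP library (blue, right), with the mean and SD of 3 libraries. In each panel the OC and OCP points do not overlap; Kdm7a shows a wide spread in OC, from 6.40 to 8.65 RPKM, and Sirt5 in OCP, from 3.11 to 4.56 RPKM.

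Of the 9 zinc-dependent deacetylases tested, Hdac2 and Hdac7 fell (22.2%) and none passed as higher. Among all tested genes 32.1% were lower and 23.5% higher, and no difference from these shares is read from counts this small. Hdac4 and Hdac5 passed as higher under some alternative settings, and so did Hdac9, which was under the filter. Hdac2, a class I enzyme of the Sin3, NuRD and CoREST complexes on chromosome 10 (36974544 to 37001889, plus strand), had 20.9, 23.7 and 24.8 RPKM in OC, against 30.3, 27.9 and 28.7 RPKM in OCP. OC was below OCP throughout, with a log2 fold change of -0.32 (SE 0.07, limma adjusted p = 0.0052). Its partner Hdac1, the highest deacetylase gene, had 34.1, 36.2 and 34.1 RPKM in OC and 37.4, 36.3 and 38.2 RPKM in OCP. Those values just missed overlapping, and Hdac1 did not pass (log2 fold change -0.10, 95% interval -0.21 to 0.01, adjusted p = 0.11). Hdac3, the enzyme of the NCoR and SMRT corepressors, had 6.49, 6.498 and 5.42 RPKM in OC and 5.70, 5.63 and 6.18 RPKM in OCP, with overlap and a 95% interval of -0.12 to 0.24. Hdac8, a deacetylase of cohesin, averaged 1.62 ± 0.151 RPKM in OC and 1.66 ± 0.190 RPKM in OCP. The summed class I level was 65.7 ± 2.38 RPKM in OC and 73.8 ± 2.16 RPKM in OCP, a ratio of 0.890, or 0.935 with TMM factors.

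The class IIa deacetylases bind MEF2 transcription factors and shuttle between nucleus and cytoplasm. Hdac7, which restrains osteoclast formation in mouse cells, had 1.00, 1.07 and 1.11 RPKM in OC, against 1.43, 1.49 and 1.41 RPKM in OCP (log2 fold change -0.25, SE 0.06, limma adjusted p = 0.011). The groups were apart, but the call was lost with the GC trend removed (log2 fold change -0.07, limma adjusted p = 0.42). The longest transcript holds 60.2% GC, and the part of GC content in the change of Hdac7 was not tested. Hdac7 also shares 29 exonic bases (0.524% of its length) with the antisense gene Slc48a1. Slc48a1 had 3564, 3107 and 3242 reads in OC and 3327, 3194 and 2724 reads in OCP, against 194 to 334 reads for Hdac7. Hdac9, another restraint on mouse osteoclast formation, was under the filter, at 0.756, 0.737 and 0.880 RPKM in OC and 0.491, 0.433 and 0.510 RPKM in OCP. OC exceeded OCP in every library, by a ratio of means of 1.66, and Hdac9 passed as higher in the fits that included it, with no filter (limma adjusted p = 0.019) and by voom (limma adjusted p = 2.1e-06). Hdac4 averaged 1.11 ± 0.0120 RPKM in OC and 0.857 ± 0.110 RPKM in OCP and missed the threshold (log2 fold change 0.19, limma adjusted p = 0.056), while it passed as higher with TMM factors (0.033), with the GC trend removed (0.0050), without the trend and robust options (0.029) and by voom (0.00067). Hdac5, the highest of class IIa, had 6.18, 6.18 and 6.10 RPKM in OC and 5.44, 6.38 and 6.03 RPKM in OCP and did not pass, except as higher with the GC trend removed (log2 fold change 0.22 against 0.04, limma adjusted p = 0.0035). Hdac9 made up 8.68% of the summed class IIa RPKM in OC and 5.50% in OCP, and Hdac7 11.6% in OC and 16.6% in OCP.

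The tubulin deacetylase Hdac6 averaged 3.81 ± 0.418 RPKM in OC and 4.504 ± 0.241 RPKM in OCP, and the polyamine deacetylase Hdac10 2.38 ± 0.151 RPKM in OC and 2.79 ± 0.218 RPKM in OCP. Neither passed (limma adjusted p = 0.062 and 0.079), although OC was below OCP in every library for both. Hdac6 passed as lower without OC replicate 2 (0.030) and Hdac10 after quantile normalization (0.035). The class IV gene Hdac11 was under the filter, with 10 to 19 reads in OC and 18 to 26 reads in OCP.

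Among the sirtuins Sirt2 rose and Sirt5 fell. Sirt2, a mostly cytosolic deacetylase of tubulin, on chromosome 7 (28766735 to 28788661, plus strand), had 11.5, 10.55 and 10.95 RPKM in OC, against 7.48, 7.92 and 7.13 RPKM in OCP. The lowest OC library was well above the highest OCP library, with a log2 fold change of 0.50 (SE 0.06, 95% interval 0.36 to 0.63, limma adjusted p = 0.00021). Sirt5, the mitochondrial desuccinylase, on chromosome 13 (43370710 to 43395202, plus strand), had 2.40, 2.40 and 2.65 RPKM in OC, against 3.94, 3.11 and 4.56 RPKM in OCP. OC was again apart from OCP, whose libraries were spread widely, and the log2 fold change was -0.47 (SE 0.11, 95% interval -0.72 to -0.23, limma adjusted p = 0.0063). Sirt2 made up 36.3 ± 0.439% of summed sirtuin RPKM in OC and 24.2 ± 1.71% in OCP, and was the highest sirtuin gene in OC. In OCP the highest was Sirt7, a nucleolar deacetylase, at 9.55 ± 0.844 RPKM in OC and 10.8 ± 0.437 RPKM in OCP.

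Sirt1, a nuclear deacetylase of NF-kB and other factors, had 3.38, 3.44 and 3.83 RPKM in OC and 5.03, 3.73 and 4.22 RPKM in OCP. OC replicate 3 was above OCP replicate 2, and Sirt1 did not pass (log2 fold change -0.22, limma adjusted p = 0.080). It passed as lower without OCP replicate 2 (log2 fold change -0.30, adjusted p = 0.023), with the GC trend removed (0.0086), after quantile normalization (0.029) and by voom (0.043). Sirt6 and Sirt7 did not pass either (limma adjusted p = 0.067 and 0.073). Sirt6 passed as lower after quantile normalization (0.027), without OCP replicate 1 (0.044) and without the trend and robust options (0.047), and Sirt7 without OC replicate 1 (0.021). The mitochondrial Sirt3 and Sirt4 were under the filter. Sirt3, the main mitochondrial deacetylase, had 0.531, 0.690 and 0.712 RPKM in OC and 0.962, 0.822 and 0.934 RPKM in OCP, without overlap, and passed as lower by voom (limma adjusted p = 0.011) but not with the filter removed (0.074). Its exons overlap the antisense genes Ric8a and Psmd13, by 6.998% and 5.73% of its length. Sirt4 averaged 0.779 ± 0.0649 RPKM in OC and 0.952 ± 0.0529 RPKM in OCP.

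On DNA methylation, the de novo enzyme Dnmt3a fell and the dioxygenase Tet2 rose. Dnmt3a, on chromosome 12 (3806007 to 3914443, plus strand), had 11.4, 11.2 and 11.6 RPKM in OC, against 14.9, 15.8 and 15.8 RPKM in OCP. Replicates lay close together within each group, and the log2 fold change was -0.41 (SE 0.05, 95% interval -0.52 to -0.30, limma adjusted p = 0.00019). The maintenance enzyme Dnmt1 was the highest of the 45 genes, with 55.3, 56.8 and 51.4 RPKM in OC and 50.7, 57.6 and 54.8 RPKM in OCP. These overlapped fully, with a log2 fold change of 0.00 and a 95% interval of -0.14 to 0.15, though it passed as higher with the GC trend removed (0.14, adjusted p = 0.039). Dnmt3b was under the filter, with 74 to 96 reads in OC and 110 to 126 reads in OCP. Dnmt3a made up 17.2 ± 1.00% of the summed Dnmt RPKM in OC and 22.0 ± 0.602% in OCP.

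Tet2, a gene often mutated in myeloid disease, on chromosome 3 (133463679 to 133545139, minus strand), had 4.94, 4.62 and 5.53 RPKM in OC, against 4.05, 3.29 and 3.78 RPKM in OCP. OC was above OCP in all libraries, with a log2 fold change of 0.36 (SE 0.08, 95% interval 0.16 to 0.55, limma adjusted p = 0.0073). Tet3 did not pass, at 4.04 ± 0.0660 RPKM in OC and 3.996 ± 0.206 RPKM in OCP, except as higher with the GC trend removed (0.14, adjusted p = 0.033). Tet1 was at 0 reads in all 3 OC libraries, where 3 reads per library would be the limit a count of 0 allows, and had 2, 4 and 0 reads in OCP. Tet2 was 55.4 ± 2.61% of summed Tet RPKM in OC and 48.0 ± 3.81% in OCP.

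Ratios of 11 pairs of related or opposing genes within a library, chosen with the calls above known, give the same differences in a form that does not depend on how a library is scaled as a whole. They are a description, with no test. Ezh2 over Ezh1 was 1.59, 1.55 and 1.74 in OC and 1.27, 1.01 and 1.24 in OCP. Kdm6b over Kdm6a was 3.24, 3.85 and 2.85 in OC and 2.07, 2.63 and 2.42 in OCP. Dnmt3a over Dnmt1 was 0.207, 0.197 and 0.225 in OC and 0.294, 0.274 and 0.288 in OCP. None of these 3 ratios overlapped between the groups. Sirt2 over Sirt5 was 4.79, 4.39 and 4.14 in OC and 1.90, 2.54 and 1.56 in OCP, the largest difference of the 11, at 1.18 on the log2 scale. Kdm5a over Kdm5b, Tet2 over Tet3, Hdac2 over Hdac1, Kdm4c over Kdm4a and Hdac4 over Hdac7 were also apart between the groups. Kdm6b over Ezh2 overlapped, at 0.747, 0.671 and 0.652 in OC and 0.570, 0.708 and 0.669 in OCP, and so did Kdm2a over Kdm2b.

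Summed over all 45 genes, the level was 366 ± 1.55 RPKM in OC and 372 ± 3.91 RPKM in OCP (SD, n = 3 each), a ratio of 0.984 that turned to 1.03 with TMM factors. The demethylase genes summed to 132 ± 1.01 RPKM in OC and 127 ± 2.10 RPKM in OCP, and the Hdac genes to 81.1 ± 2.53 RPKM in OC and 89.96 ± 1.28 RPKM in OCP. Sirtuins summed to 30.3 ± 0.994 RPKM in OC and 31.0 ± 0.547 RPKM in OCP, a ratio of 0.976 that turned to 1.02 with TMM factors. No direction is given for the sum of all 45 genes or for the sirtuins.

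The settings behind each call are shown in the map of called enzymes by processing setting. Of the 16 called enzymes, 12 were called the same way in each of the alternatives that tested them, among them Kdm7a, Sirt2, Kdm6b, Ezh2, Tet2, Dnmt3a, Hdac2 and Sirt5. The other 4 were Kdm5a, Kdm2b, Kdm8 and Hdac7, whose losses are given above. No called enzyme changed sign in any alternative.

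**Figure D4:**
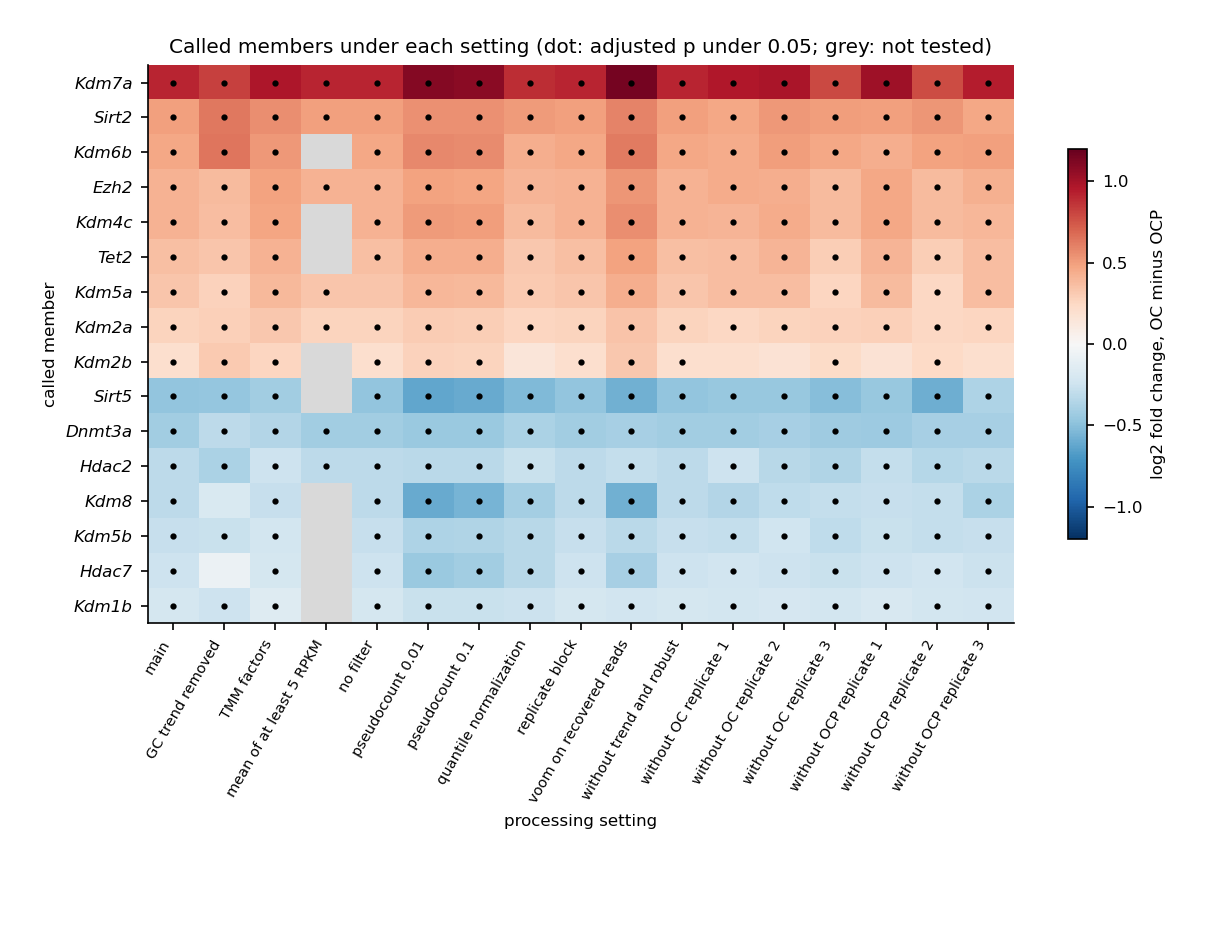
Log2 fold change (colour, OC minus OCP) of the 16 called enzyme genes (rows) under the reported setting and 16 alternatives (columns). A dot marks an adjusted p under 0.05 and grey a gene not tested in that setting; dots are missing for Kdm2b in 5 columns and for Kdm5a, Kdm8 and Hdac7 in 1 column each.

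Genes that work with these enzymes were listed by role, under 157 symbols. Some genes were listed under both an older and a newer symbol, so an absent symbol need not be a missing gene. Of the symbols, 143 were in the table and 132 were tested. Of these 36 were higher and 37 lower in OC, or 27.3% and 28.0%, close to the shares over all tested genes. With TMM factors the counts were 43 and 28, beside 28.2% higher and 26.2% lower among all tested genes. With the GC trend removed they were 47 and 30, beside 29.9% and 28.6%. The counts of single lists below are to be set beside 23.5% higher and 32.1% lower among all tested genes, and no list was tested as a set. Among writers of H3K4 methylation 6 of 15 were higher and 1 lower, with Kmt2a at 5.03, 4.796 and 5.39 RPKM in OC and 3.02, 2.77 and 2.96 RPKM in OCP, and Kmt2d at 7.14 ± 0.179 RPKM in OC and 5.35 ± 0.284 RPKM in OCP. H3K9 methyltransferases and readers had 2 of 10 higher and 1 lower, led by Prdm2 (11.6 ± 0.126 RPKM in OC, 7.02 ± 0.432 RPKM in OCP), followed by Setdb2 (6.52 ± 0.158 RPKM in OC, 5.58 ± 0.488 RPKM in OCP), which was called the same way in 10 of 16 alternatives. Writers of H3K36, H3K79 and H4K20 methylation had 1 of 10 higher and 4 lower, including the H3K79 methyltransferase Dot1l (37.1 ± 1.23 RPKM in OC, 50.7 ± 1.84 RPKM in OCP) and the H4K20 monomethylase Kmt5a (79.9 ± 1.36 RPKM in OC, 94.2 ± 3.01 RPKM in OCP). Histone acetyltransferases, which oppose the deacetylases, had 1 of 11 higher and 4 lower, including Kat5 (12.9 ± 0.499 RPKM in OC, 15.9 ± 0.631 RPKM in OCP) and Naa40, an N-terminal acetyltransferase of histones (8.14 ± 0.437 RPKM in OC, 9.71 ± 0.540 RPKM in OCP).

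Subunits of the corepressor complexes that carry HDAC1, HDAC2 and HDAC3 had 10 of 25 higher and 9 lower. Sin3b, a scaffold of the Sin3 complex, fell to 22.4 ± 1.31 RPKM in OC, against 34.3 ± 1.13 RPKM in OCP, and Gatad2b of the NuRD complex rose to 9.38 ± 0.353 RPKM in OC, against 6.16 ± 0.213 RPKM in OCP. Of the MEF2 factors bound by class IIa deacetylases, 2 of 3 tested rose and none fell. Mef2c, 1 of the 2, passed the filter through OC alone, so this count is not read as a trait of the list. Mef2c had 1.504 ± 0.0670 RPKM in OC and 0.534 ± 0.0358 RPKM in OCP, and Mef2a 6.54 ± 0.452 RPKM in OC and 4.91 ± 0.555 RPKM in OCP. PRC2 accessory genes had 1 of 8 higher and 1 lower. Jarid2, which helps bring PRC2 to chromatin, fell to 29.9 ± 0.903 RPKM in OC, against 38.0 ± 0.364 RPKM in OCP, in the same libraries in which Ezh2 rose. Phf1, another accessory subunit, was higher at 1.58 ± 0.272 RPKM in OC and 1.14 ± 0.145 RPKM in OCP (limma adjusted p = 0.048) but was called in 6 of 15 alternatives.

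Genes of DNA methylation and its readers had 5 of 15 higher and 3 lower. Gadd45b, a stress-response gene linked to active DNA demethylation, had 100.2, 99.6 and 92.8 RPKM in OC and 19.1, 18.3 and 16.7 RPKM in OCP, a log2 fold change of 2.37 and the largest among the listed partners. The cytidine deaminase gene Apobec1 averaged 22.9 ± 2.06 RPKM in OC and 15.6 ± 1.524 RPKM in OCP. Other JmjC proteins had 1 of 11 higher and 5 lower, led by Jmjd4 (2.00 ± 0.0476 RPKM in OC, 2.82 ± 0.112 RPKM in OCP) and Jarid2. For the cosubstrates, genes of NAD supply and use had 4 of 12 higher and 4 lower. The NAD-consuming ectoenzyme gene Bst1 rose to 26.4 ± 1.91 RPKM in OC, against 12.97 ± 0.207 RPKM in OCP, and Nmnat1, which encodes a nuclear enzyme of NAD synthesis, fell to 9.67 ± 0.329 RPKM in OC, against 14.5 ± 0.482 RPKM in OCP. Genes of S-adenosylmethionine and 2-oxoglutarate supply had 3 of 14 higher and 7 lower. The mitochondrial isocitrate dehydrogenase subunit Idh3a fell to 50.5 ± 2.64 RPKM in OC, against 79.1 ± 4.61 RPKM in OCP, and Ahcyl1, a homolog of adenosylhomocysteinase, rose to 22.4 ± 0.420 RPKM in OC, against 14.1 ± 0.373 RPKM in OCP. Except for Phf1, Setdb2 and Naa40 (14 of 16), the named partner genes were called the same way in each alternative that tested them.

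**Figure D5:**
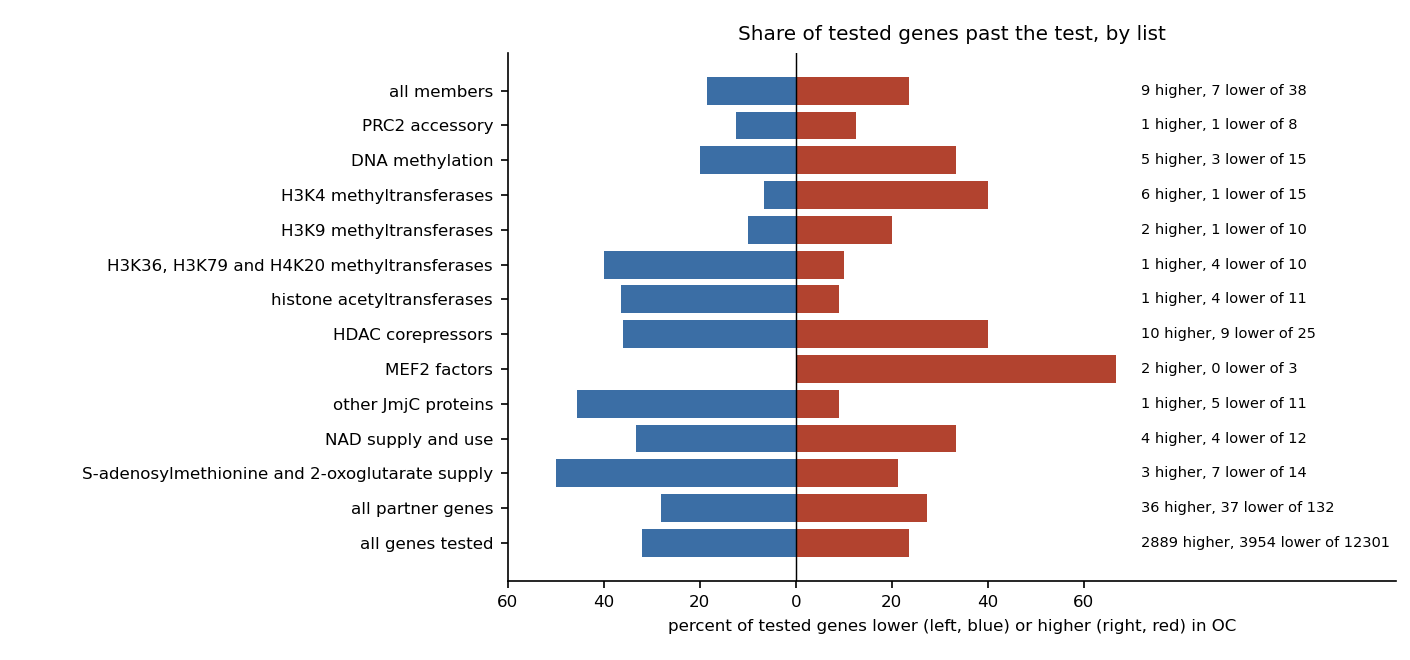
Percent of tested genes that were lower (blue, left of 0) or higher (red, right of 0) in OC than in OCP at an adjusted p under 0.05, for the 45 enzymes, each list of partner genes and all genes tested. The bars for all genes stand at 32.1% lower and 23.5% higher, and lists of few genes, such as the 3 tested MEF2 factors, take coarse steps.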

How the data were processed

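RNA-seq was measured in 3 OC and 3 OCP libraries. The authors deposited RPKM values for all libraries in a single table. Per the labels, RNA was extracted with TRIzol and put through a stranded mRNA kit. Per the submitters' processing notes, reads went through Trimmomatic 0.36, STAR 2.5.3a and featureCounts. The notes name the build GRCh38, but the table's coordinates are those of mouse genes: all 45 symbols were found in GENCODE M21 (GRCm38), 40 of them with identical start and end. No source used here gives the strand setting or the handling of reads with several matches, and paralogs and the 18 enzymes whose exons overlap another gene are uncertain.

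Genes that reached 1 RPKM in 3 or more of 6 libraries were tested on log2(RPKM + 1) with limma 3.58.1 (R 4.3.3, statmod 1.5.0; trend and robust options), OC minus OCP, two-sided, with Benjamini-Hochberg adjustment over all 12301 tested genes and a threshold of 0.05. RPKM times the deposited gene length and the library total gave whole reads for 100% of values within 0.01 reads, and voom used these, for genes averaging at least 10 reads. The labels do not say that libraries of a group came from separate cultures or animals, so p-values measure only how these samples vary, which may be technical variation. Floors cover counting error only.

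The alternatives tried were quantile normalization, TMM factors, voom, pseudocounts of 0.01 and 0.1, keeping low genes, a stricter filter (a mean of 5 RPKM or more), limma without its trend and robust options, a replicate block, each replicate left out in turn, and the GC trend removed by loess, which was added after seeing the data. The enzymes, lists, pairs and rules were chosen with earlier results of these data known. Values in every library were given for called enzymes with an absolute log2 fold change of at least 0.5. They were also given for 8 enzymes with a known part in osteoclast formation (Kdm6b, Kdm1a, Dnmt3a, Ezh2, Hdac3, Hdac7, Hdac9 and Sirt1). The highest gene of each family was treated in the same way, except Kdm3b, Hdac6, Hdac11 and Sirt7, as were others chosen after their values were seen. Of each partner list the 2 called genes with the largest change were named. Promoters came from RefSeq on GRCm38.p6.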

Additional observations from a re-analysis of the deposited data

How the results depend on the processing

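None of the 16 called enzymes changed sign in any of 16 alternatives. With a mean of at least 5 RPKM, where fewer genes were tested, 5 enzymes were higher and 2 lower in OC, and 1645 of all genes were higher. Leaving out 1 library at a time gave 8 to 9 enzymes higher and 7 to 9 lower, 2524 to 2932 of all genes higher and 3370 to 3784 lower, and 25 to 39 partner genes higher and 31 to 38 lower. TMM factors gave 3471 of all genes higher and 3224 lower. Voom, which tested 15802 genes, called 12 enzymes higher and 9 lower. Of 602 pairs of an enzyme and an alternative, 8 lost a call and 22 gained one.

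Some enzymes that did not pass crossed 0, by log2 fold changes near 0. Kdm3b turned to 0.0924 with the GC trend removed, 0.0387 with TMM factors, 0.0048 after quantile normalization and 0.0123 by voom. Kdm4b turned to 0.154 with the GC trend removed, 0.0432 with TMM factors and 0.0165 by voom. Hdac8 turned to 0.0247 with TMM factors and 0.0064 by voom, and Kdm4a to 0.0152 and Sirt6 to 0.0021 with the GC trend removed. After quantile normalization Kdm6a turned to -0.012, Tet3 to -0.0209 and Ezh1 to -0.0227. With 1 library left out the ranges were -0.0104 to 0.0534 for Kdm1a, -0.0869 to 0.0399 for Kdm4b, -0.0054 to 0.1539 for Kdm6a, -0.0735 to 0.0296 for Hdac8, -0.01 to 0.0885 for Hdac5, -0.045 to 0.046 for Dnmt1, -0.0201 to 0.0363 for Tet3 and -0.0265 to 0.0503 for Ezh1. The causes of these changes were not tested.

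Replicate numbers are shared between the groups but are not said to pair libraries, so no pairing was assumed. Same-numbered libraries deviated from their group means with correlations of -0.11, 0.14 and 0.01 over 12301 genes. With 3 libraries per group, some of whose deviations followed GC content, these correlations cannot decide whether libraries were paired. With the replicate number as a block, 9 enzymes were higher and 7 lower, as without it, and 2827 and 3851 of all genes and 32 and 38 partner genes were higher and lower. Not every library correlated best with its own number: OC replicate 3 did so with OCP replicate 1 (0.26). Depth limits Kdm4d, Tet1 and Hdac11, with at most 26 reads in any library.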
